A study of Mus musculus with 7 samples.

Results

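Transcript levels of 9 genes that mark alternative activation of macrophages were examined in lesional skin of bleomycin-treated mice with and without OX40L. They were Retnla, Arg1, Chil3, Mrc1, Mgl2, Clec10a, Msr1, Trem2 and Gpnmb. The genes were chosen by name as known markers, and the set was selected on 1 measured value, the higher Retnla level in knockout skin, so the Retnla difference is given as a description without a test. All 9 were found among the 23185 genes with a symbol on the arrays, each with 1 probe set. The knockout group (KO, ox40l-/-) had 4 arrays and the wild type group (WT, ox40l+/+) had 3 arrays. Both groups were male C57BL/6 mice aged 9 weeks that had received bleomycin, an agent used to induce skin fibrosis, for 3 weeks, so no untreated skin was compared. The labels do not say which part of the OX40L gene was deleted, in which cells, or whether each sample came from a separate animal. What the p-values weigh is thus the variation among the 7 samples, part of which may be technical.

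Macrophages exposed to the type 2 cytokines IL-4 and IL-13 signal through the IL-4 receptor and the transcription factor STAT6, and switch on a set of secreted proteins, enzymes and surface receptors. This state is called alternative activation and is known from wound repair, helminth infection and fibrosis. Retnla encodes RELM-alpha, a secreted protein of the resistin family that in skin wounds is linked to collagen cross-linking by fibroblasts. Arg1 encodes arginase, which turns arginine into ornithine and urea, and Chil3 encodes Ym1, a secreted chitinase-like protein without chitinase activity. Mrc1 encodes the mannose receptor, Mgl2 and Clec10a encode galactose-binding lectins that are also found on dermal dendritic cells, and Msr1 encodes the class A scavenger receptor. Trem2, a lipid-sensing receptor, and Gpnmb, a lysosomal membrane glycoprotein also made by melanocytes, mark lipid-laden macrophages.

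Promoter windows from RefSeq (build GRCm38.p6), from 250 bases before to 50 bases after the start of a transcript, were held for 6 of the 9 genes, namely Retnla, Chil3, Mrc1, Mgl2, Trem2 and Gpnmb. The windows of the genes with the highest, the smallest and the lowest difference between genotypes are printed 5′ to 3′ on the strand of the gene, with the motifs named after them in capitals. They are Retnla (chr16:48842359-48842658, plus strand), Chil3 (chr3:106167515-106167814, minus strand) and Gpnmb (chr6:49036268-49036567, plus strand).
Retnla: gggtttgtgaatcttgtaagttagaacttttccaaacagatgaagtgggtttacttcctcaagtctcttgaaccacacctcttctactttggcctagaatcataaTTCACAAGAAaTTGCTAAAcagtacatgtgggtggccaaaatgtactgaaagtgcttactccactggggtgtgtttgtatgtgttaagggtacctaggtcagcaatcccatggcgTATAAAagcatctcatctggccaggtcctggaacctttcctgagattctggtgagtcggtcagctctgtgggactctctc
Chil3: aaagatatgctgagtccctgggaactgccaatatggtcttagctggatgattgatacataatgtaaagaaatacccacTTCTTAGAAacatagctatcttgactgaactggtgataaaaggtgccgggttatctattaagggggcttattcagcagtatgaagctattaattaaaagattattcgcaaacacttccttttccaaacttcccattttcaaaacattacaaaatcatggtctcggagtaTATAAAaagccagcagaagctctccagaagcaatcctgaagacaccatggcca
Gpnmb: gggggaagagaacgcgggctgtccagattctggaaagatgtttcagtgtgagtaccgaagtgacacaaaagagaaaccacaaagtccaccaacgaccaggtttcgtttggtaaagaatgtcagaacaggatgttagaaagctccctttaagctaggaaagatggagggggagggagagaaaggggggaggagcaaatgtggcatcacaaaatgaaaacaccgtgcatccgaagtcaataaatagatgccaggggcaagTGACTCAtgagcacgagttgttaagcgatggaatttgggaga

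The capitals mark 5 motifs, searched on both strands. The STAT6 motif TTCNNNNGAA was held by the Retnla window, as TTCACAAGAA starting 145 bases before the transcript start, and by no other of the 6 windows. It was present in 6.95% of all 32851 promoter windows of this length. The C/EBP motif TTNNGCAA, bound by transcription factors of myeloid cells among others, followed after a gap of 1 base in the Retnla window and was also held by the Trem2 window, against 10.8% of all windows. The general STAT motif TTCNNNGAA was held by the Chil3 window only (8.3% of all windows), and the TATA box letters TATAAA by the Retnla and Chil3 windows (13.6% of all windows). In the Retnla window these letters started 30 bases before the transcript start. In the Chil3 window they started 3 bases before it and ran across it, so that match is one of letters only. The AP-1 motif TGANTCA was held by the Gpnmb and Trem2 windows (7.81% of all windows). The capitals in the printed windows do not overlap each other. These matches describe the letters of the windows, and binding was not measured.

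The arrays were not equally alike, which bears on every value that follows. Pearson's r across probe sets was 0.956 to 0.968 among WT replicate 2 and the KO arrays, and 0.761 to 0.914 for pairs that included WT replicate 1 or 3. The arrays also differed in scale. The SD across probe sets was 1.72 on WT replicate 1 and 1.22 on WT replicate 3, against 1.38 to 1.48 on the other arrays. Array medians ran from 3.45 on WT replicate 1 to 3.74 on WT replicate 3. Across all genes the median SD within a genotype was 0.387 in WT and 0.188 in KO. Of 16 measured macrophage markers, which include Adgre1, Cd68 and Csf1r, 4 had a higher and 12 a lower mean in KO, and their mean log2 level per array was 5.01 to 5.36 in KO and 4.94 to 5.53 in WT. This mean level overlapped between the genotypes. The arrays give a value for every probe set, so presence of macrophage RNA was not tested. With all arrays Itgam alone had an unadjusted p under 0.05 in limma, lower in KO, against 0.854% of all genes in that direction. Without WT replicate 3 the count was again 4 higher and 12 lower, with a median difference of -0.38 in place of -0.14. In that run 4 markers were lower at that threshold. Of all 23185 genes, 2786 reached it in either direction. The share of all genes lower in KO in that run is not given here, so nothing is read from the 4 markers. In whole skin, fewer cells of a type and less RNA per cell cannot be told apart.

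Retnla was the 1 gene of the 9 whose genotypes did not overlap. Its log2 values in KO skin were 9.72, 9.92, 11.79 and 10.42 on replicates 1 to 4. In WT skin they were 8.90, 9.47 and 8.93 on replicates 1 to 3. All KO arrays lay above all WT arrays, with a gap of 0.25 between the lowest KO and the highest WT array, and KO replicate 3 was the highest array. The means were 10.46 ± 0.93 (SD, n = 4) and 9.10 ± 0.32 (SD, n = 3), a difference of 1.36 (SE 0.49), which is 2.57-fold. Every KO array lay above every WT array for 1.1% of all genes, and as this contrast chose the gene nothing is read from that share.

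With groups that do not overlap the sign cannot turn when arrays are left out, and only the size is of interest. Leaving out 1 array at a time gave Retnla differences from 0.92 to 1.61, the lowest being that without KO replicate 3. Without WT replicates 1 and 3, the arrays that stood apart, the difference was 0.99 (SE 0.89), with the lone WT array assumed to vary like the KO arrays. The sample codes in the labels carry a suffix on some samples, whose meaning is not stated. Their numbers are partly shared, by KO replicates 1 and 2, by WT replicates 1 and 2, and by WT replicate 3 with KO replicate 3. Whether a shared number within a genotype marks 1 animal is not stated, and if it did, the errors given here would be too small. Among samples without the suffix, KO was at 9.72 and 10.42 and WT at 8.90 and 8.93. Among samples with it, KO was at 9.92 and 11.79 and WT at 9.47. As the groups do not overlap, these subsets could not show another order.

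**Figure D1:**
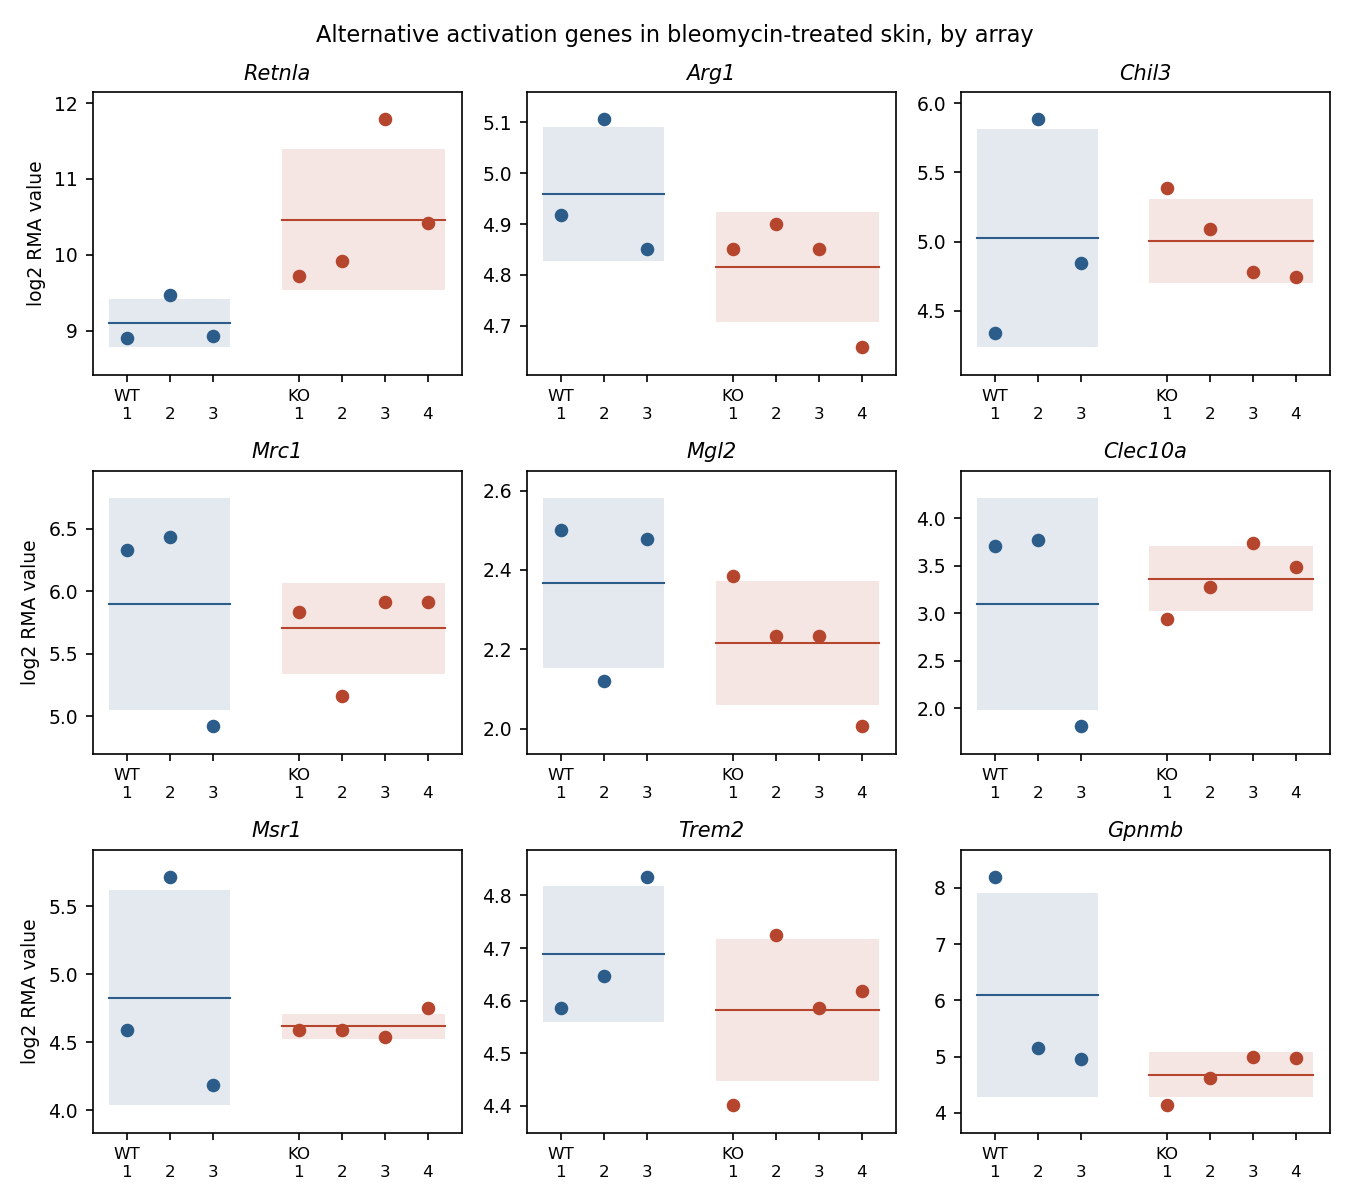
Log2 RMA values of the 9 genes (vertical axes, a separate scale for each gene) on each WT array (blue) and KO array (red), with lines at the group means and bands of 1 SD. Retnla is the 1 panel in which all KO points lie above all WT points, and the highest Gpnmb point, 8.19, is WT replicate 1.

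The other resistin family genes were measured as well. Retn, which encodes resistin, a product of adipocytes, was at 7.02 to 7.77 in KO and 6.67 to 7.55 in WT, a difference of 0.43 (SE 0.27). Retnlb differed by 0.29 (SE 0.31), with KO replicate 1 at 3.38 and the other arrays at 2.12 to 2.37. Retnlg differed by 0.30 (SE 0.13), with KO at 3.15 to 3.20 and WT at 2.72 to 2.99, so that its groups did not overlap, as for 1.1% of all genes in that direction. The difference was 0.24 for Retn without WT replicate 3 and 0.0011 for Retnlb without KO replicate 1. Retnlb and Retnlg, unlike Retn, were at a low level, since the median over all genes and arrays was 3.60. None of these 3 genes passed at an adjusted p under 0.05 in limma over all genes, and 1, Retnlg, had an unadjusted p under 0.05, against 1.03% of all genes in that direction. Without WT replicate 1 none of the 3 did. Retnlb and Retnlg are the direct neighbours of Retnla among protein-coding genes in RefSeq. The next genes out on either side, Trat1, a T cell adaptor, and Dzip3, differed by -0.59 (SE 0.20) and -0.31 (SE 0.17), both with every KO array below every WT array, as for 0.815% of all genes.

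Markers of fat and of eosinophils, cells that can also make Retnla, were set beside it. Adipocyte markers had a higher mean in KO in 9 of 11 measured genes, with a median difference of 0.36. Their mean log2 level was 5.97, 6.26, 6.58 and 6.53 on KO replicates 1 to 4 and 6.34, 6.28 and 5.49 on WT replicates 1 to 3. The array with the highest Retnla value, KO replicate 3, also had the highest adipocyte level, but the groups overlapped and the low WT value was on replicate 3 alone; without that array the median difference was 0.083. Adipoq, the adipocyte hormone adiponectin, was at 6.91 to 7.61 in KO and 5.81 to 7.22 in WT. Eosinophil markers had mean levels of 2.68 to 2.92 in KO and 2.35 to 3.08 in WT, below the median of all values. Of 8 measured, 6 had a higher and 2 a lower mean in KO, with a median difference of 0.095. Without WT replicate 3 all 8 were higher, with a median of 0.38. Without WT replicate 1 or 2 the count was 4 higher and 4 lower. The part of either cell type in the Retnla difference was not tested.

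The genes whose pattern over the 7 arrays was most like that of Retnla were Pramel19, Gpihbp1 and Defb8, with Pearson's r of 0.983, 0.979 and 0.977, the highest among all genes of known name. Gpihbp1, which carries lipoprotein lipase across capillary walls, was at 6.74 on KO replicate 3, at 5.65 to 6.11 on the other KO arrays and at 5.38 to 5.75 in WT. Defb8, a beta-defensin, was at 9.46 on KO replicate 3, at 5.34 to 6.29 on the other KO arrays and at 2.33 to 4.09 in WT. Pramel19 was at 1.73 to 2.41 on all arrays, far below the median of all values. These 3 were picked as the best of all genes ranked over few arrays, so the r values describe the choice.

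Arg1 had overlapping values in the genotypes. Its log2 values were 4.85, 4.90, 4.85 and 4.66 on KO replicates 1 to 4 and 4.92, 5.11 and 4.85 on WT replicates 1 to 3. All 7 arrays lay within 0.45 of each other, and 3 of them, KO replicates 1 and 3 and WT replicate 3, shared the same value. KO minus WT was -0.14 (SE 0.14), with a 95% confidence interval from -0.46 to 0.17 and a limma adjusted p of 0.9995. Without WT replicate 2 the difference was -0.07. The interval over all arrays corresponds to a KO level of 0.727 to 1.13 times that in WT.

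Most genes around arginase in arginine and polyamine metabolism had a lower mean in KO, without passing the test. Of 13 measured genes, 2 had a higher and 11 a lower mean in KO, with a median difference of -0.19, against 51.7% of all genes with a higher mean and a median of 0.0096 over all genes. None passed at an adjusted p under 0.05 in limma. At an unadjusted p under 0.05, 3 genes were lower (Oat, Sat1 and Azin1) and none was higher, against 0.854% of all genes that were lower at that threshold. Oat, ornithine aminotransferase, was at 4.49 to 5.56 in KO and 5.56 to 6.74 in WT, a difference of -1.08 (SE 0.36). Azin1, which blocks the protein that targets ornithine decarboxylase for degradation, was at 3.44 to 3.86 in KO and 4.06 to 4.89 in WT, a difference of -0.71 (SE 0.23), which was -0.46 without WT replicate 1.

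Azin1 and Srm, spermidine synthase, had every KO array below every WT array, against 0.815% of all genes. Srm was at 4.69 to 5.13 in KO and 5.20 to 6.66 in WT (-0.81, SE 0.36), and its difference was -0.34 without WT replicate 1. Sat1, which acetylates polyamines for export, differed by -0.46 (SE 0.19). WT replicate 1 had the highest value in 7 of the 13 genes. Without it 10 of 13 were lower, with a median of -0.31, and 1 gene had an unadjusted p under 0.05. The list was counted but its direction was not tested. Nos2, the inducible nitric oxide synthase that competes for arginine in classical activation, was at 3.32 to 3.90 in KO and 3.05 to 3.55 in WT.

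Chil3 had the difference closest to 0 of the 9 genes. Its values were 5.39, 5.09, 4.78 and 4.75 on KO replicates 1 to 4 and 4.34, 5.88 and 4.85 on WT replicates 1 to 3. The WT arrays spanned 1.54 log2 units and enclosed all KO arrays. KO minus WT was -0.02 (SE 0.37; limma adjusted p = 0.9995), with a 95% confidence interval from -0.88 to 0.84, which spans KO levels of 0.544 to 1.79 times those in WT. The interval assumes a common spread, but the SD was 0.79 in WT and 0.30 in KO, so it may be too narrow. Among the other chitinase-like genes, Chil4, its closest relative, differed by 0.046 (SE 0.31), Chia1 by 0.041 (SE 0.22), Chit1 by 0.047 (SE 0.22), Chil5 by 0.056 (SE 0.28) and Chil6 by 0.10 (SE 0.32). Chil1 differed by -0.45 (SE 0.34), with WT replicate 1 at 4.81 and the other arrays at 3.31 to 3.59, and without that array the difference was 0.0084. None of the 6 passed in limma. The count of 5 higher and 1 lower became 2 higher and 4 lower without WT replicate 1. Probes of Chil3 and Chil4 can cross-hybridise, as can those of other close relatives, so each value belongs to its probe set.

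The mannose receptor gene Mrc1 varied more within WT than between genotypes. Its values were 5.83, 5.17, 5.91 and 5.91 on KO replicates 1 to 4 and 6.33, 6.43 and 4.92 on WT replicates 1 to 3. WT replicates 1 and 2 were above every KO array and WT replicate 3 was below every KO array. The difference was -0.19 (SE 0.40; limma adjusted p = 0.9995). Without WT replicate 3 it was -0.68, and without WT replicate 1 or 2 it was 0.027 or 0.077.

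Msr1, which takes up modified lipoproteins, was the most even of the 9 genes among KO arrays and uneven among WT arrays. It was at 4.59, 4.59, 4.54 and 4.75 on KO replicates 1 to 4 and at 4.59, 5.71 and 4.18 on WT replicates 1 to 3. KO replicates 1 and 2 and WT replicate 1 shared the same value, as RMA can return, so the evenness in KO is partly a repeated value. WT replicate 2 was the highest array, and its value set the sign, since the difference of -0.21 (SE 0.34; limma adjusted p = 0.9995) was 0.23 without it. Arg1, Chil3, Mrc1 and Clec10a were also highest on WT replicate 2, which had the highest macrophage marker level, 5.53.

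Mgl2 and Clec10a lie next to each other in RefSeq's gene order and encode the 2 mouse forms of the galactose-type lectin CD301. Mgl2 was at 2.39, 2.23, 2.23 and 2.01 on KO replicates 1 to 4 and at 2.50, 2.12 and 2.48 on WT replicates 1 to 3. Clec10a was at 2.94, 3.28, 3.74 and 3.49 in KO and at 3.71, 3.77 and 1.81 in WT, in the same order. Both genes had mean levels below the median of all values, 3.60, where a difference in RNA may not show. The differences were -0.15 (SE 0.16) for Mgl2 and 0.27 (SE 0.49) for Clec10a, with a limma adjusted p of 0.9995 for each. The sign for Clec10a rested on WT replicate 3, and without that array the difference was -0.38. On that array Mgl2 was among the higher values and Clec10a the lowest, so the neighbours did not move together there. Dendritic cell markers had mean levels of 4.50 to 4.70 in KO and 4.49 to 4.67 in WT, with 6 genes higher and 6 lower.

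Among 22 further lectin and scavenger receptor genes, 8 had a higher and 14 a lower mean in KO, with a median difference of -0.058. Without WT replicate 3 the count was 13 higher and 9 lower. None reached an adjusted p, or even an unadjusted p, under 0.05 in limma. Cd36, a scavenger receptor and fatty acid transporter also abundant in fat and muscle, differed by 0.96 (SE 0.56), with WT replicate 3 at 5.67 and the other arrays at 7.32 to 8.50; without that array the difference was 0.26. Asgr2, an asialoglycoprotein receptor subunit, differed by 0.36 (SE 0.26), Marco, a scavenger receptor of the same class as Msr1, by -0.19 (SE 0.16), and Clec7a, the beta-glucan receptor dectin-1, by -0.15 (SE 0.13). Single arrays moved these too, to 0.087 for Asgr2 without WT replicate 1, -0.10 for Marco without WT replicate 2 and -0.10 for Clec7a without WT replicate 3.

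Trem2 was the steadiest of the 9 genes over all arrays. It was at 4.40, 4.72, 4.59 and 4.62 on KO replicates 1 to 4 and at 4.59, 4.65 and 4.83 on WT replicates 1 to 3, a range of 0.43. KO minus WT was -0.11 (SE 0.14; limma adjusted p = 0.9995), with a 95% confidence interval from -0.44 to 0.22, so KO levels of 0.739 to 1.17 times those in WT lay within the interval. Without WT replicate 3 the difference was -0.034. Tyrobp, the adaptor through which TREM2 signals, differed by 0.12 (SE 0.34).

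Gpnmb had the widest range of the 9 genes and the lowest difference, and 1 array set the range and most of the size of the difference. It was at 4.13, 4.61, 4.99 and 4.97 on KO replicates 1 to 4 and at 8.19, 5.14 and 4.96 on WT replicates 1 to 3. WT replicate 1 stood far above the other arrays, and WT replicate 3 lay among the KO values. KO minus WT was -1.42 (SE 0.76), with a 95% confidence interval from -3.20 to 0.36 and a limma adjusted p of 0.9995. Without WT replicate 1 it was -0.38 (SE 0.27), next to -0.36 for Chil3 in the same run.

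Melanocyte genes moved with Gpnmb on that array. Of 10 melanocyte markers, 8 had their highest value on WT replicate 1, and the mean log2 level of the list was 5.45 there, against 3.63 and 3.95 on the other WT arrays and 3.40 to 3.86 in KO. Mlana, a melanosome protein, was at 9.37 on WT replicate 1 and 4.32 to 5.30 elsewhere. Dct, an enzyme of melanin synthesis, was at 8.02 there and 3.91 to 4.25 elsewhere, and Tyrp1, a related enzyme, at 6.64 there and 3.36 to 3.67 elsewhere. Sox10 was at 2.99 there and 3.03 to 4.09 elsewhere. Hair follicle markers had a mean of 7.38 on WT replicate 1, against 3.60 to 4.89 on the other arrays. Trem2, which marks lipid-laden macrophages with Gpnmb, was at 4.59 on that array. The macrophage list was at 5.36 there, equal to the highest KO array. Further lists were also highest there. Genes of lipid-laden and lysosome-rich macrophages had a mean of 6.78, against 5.38 to 6.34 on the other arrays, and 11 of 23 peaked there. Keratinocyte markers were at 8.22, against 6.29 to 7.24, and fibroblast markers at 6.6, against 5.22 to 6.13. The part of any of these cell types in the Gpnmb value was not tested.

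**Figure D2:**
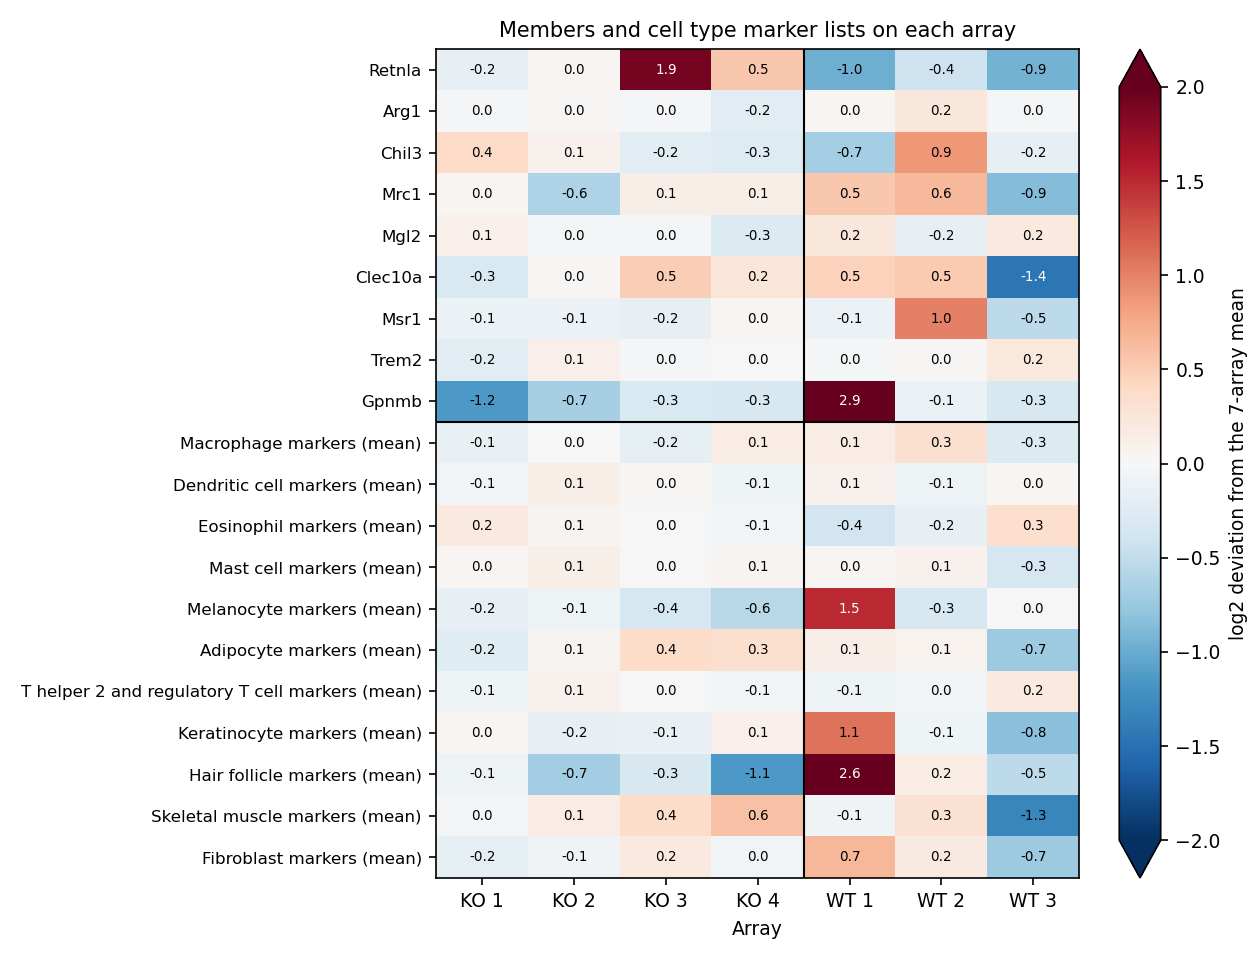
Deviation of each of the 9 genes (above the line) and of the mean of each cell type marker list (below it) from its own mean over the 7 arrays, in log2 units, with KO arrays to the left of the vertical line. Colours saturate at 2 units. Gpnmb and the melanocyte, hair follicle, keratinocyte and fibroblast lists are all highest on WT replicate 1. Retnla is highest on KO replicate 3, and WT replicate 3 is low for Clec10a, Mrc1, muscle and fat.

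Other genes of lipid-laden and lysosome-rich macrophages split both ways. Of 23 measured genes, 10 had a higher and 13 a lower mean in KO, with a median difference of -0.055, and none reached an adjusted p, or even an unadjusted p, under 0.05 in limma. Fabp5, a fatty acid carrier also made by keratinocytes, differed by 1.20 (SE 0.56), with WT replicate 3 at 5.97 and the other arrays at 8.05 to 9.08; without that array the difference was 0.44. Cd63, a tetraspanin of late endosomes, differed by 0.30 (SE 0.15). Tfec, a transcription factor of the Mitf family found in macrophages, differed by -0.51 (SE 0.31), with WT replicate 2 at 4.98 and the other arrays at 3.51 to 3.90, and by -0.12 without that array. The split turned with the arrays that stood apart, to 18 higher and 5 lower without WT replicate 1 and to 7 higher and 16 lower without WT replicate 3.

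The pathway upstream of alternative activation had genes with higher and lower means in similar numbers. Of 20 measured genes of the IL-4 and IL-13 pathway, 11 had a higher and 9 a lower mean in KO, with a median difference of 0.025, and none passed at an adjusted p under 0.05 in limma. Il4 was at 3.10 to 3.21 in KO and 2.68 to 3.32 in WT, and Il13 at 4.41 to 4.80 in KO and 3.86 to 4.93 in WT. Il4ra, the shared receptor chain, differed by -0.21 (SE 0.24) and Stat6 by 0.013 (SE 0.18). Il13ra2, a decoy receptor that binds IL-13, was the 1 gene of the list with an unadjusted p under 0.05, against 1.88% of all genes in either direction. It was at 3.27 to 3.69 in KO and 2.92 to 3.29 in WT, a difference of 0.43 (SE 0.17) near the median of all values, with overlapping groups, and the count at an unadjusted p under 0.05 was 0 without WT replicate 1 and 2 higher and 2 lower without WT replicate 3.

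Klf4, a transcription factor that cooperates with STAT6, differed by -0.68 (SE 0.43). WT replicate 1 was at 6.08 and the other arrays at 4.16 to 4.41, and without that array the difference was -0.092. Kdm6b, a histone demethylase induced in alternative activation, differed by -0.29 (SE 0.24), also with WT replicate 1 (4.89) above the other arrays (4.00 to 4.01). Jak3, a kinase of the receptor complex, differed by 0.31 (SE 0.21), and by 0.13 without WT replicate 1. Markers of T helper 2 and regulatory T cells, the former a source of IL-4 and IL-13 and both able to carry OX40, the receptor for OX40L, had mean levels of 3.49 to 3.66 in KO and 3.46 to 3.77 in WT, with 6 genes higher and 7 lower.

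Of 26 other genes of alternative activation, 12 had a higher and 14 a lower mean in KO, with a median difference of -0.027. Without WT replicate 3 the count was 16 higher and 10 lower. None reached an adjusted p, or even an unadjusted p, under 0.05 in limma. Ccl17, a chemokine for T helper 2 cells, was at 3.10 to 3.48 in KO and 3.48 to 3.80 in WT (-0.33, SE 0.16), the 1 gene of the list whose groups did not overlap, against 0.815% of all genes in that direction. The highest KO and the lowest WT value were both 3.48 after rounding. Cd209d, a lectin of the DC-SIGN family, differed by 0.46 (SE 0.25), Il1rn, the interleukin-1 receptor antagonist, by 0.27 (SE 0.17), and Itgb3, the integrin beta 3 chain, by 0.22 (SE 0.16). Il1rn was at a difference of 0.11 without WT replicate 3, and Itgb3 of 0.13 without WT replicate 1. Without WT replicates 1 and 3 the sign for Cd209d turned (-0.10).

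Genes of classical activation, the state driven by interferon-gamma and bacterial products, were split evenly, with 11 of 22 higher in mean, 11 lower and a median difference of 0.0066. None reached an adjusted p, or even an unadjusted p, under 0.05 in limma. Cxcl11, an interferon-induced chemokine, differed by 0.52 (SE 0.33), Gpr18, a lipid receptor, by 0.47 (SE 0.31), Ccl5, a chemokine for T cells, by 0.37 (SE 0.27), and Il1b, a proinflammatory cytokine, by -0.29 (SE 0.20). Each of these 4 differences rested in part on 1 array. They were 0.24 for Cxcl11 without KO replicate 3, 0.13 for Gpr18 without WT replicate 1, 0.17 for Ccl5 without KO replicate 1 and -0.10 for Il1b without WT replicate 3.

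**Figure D3:**
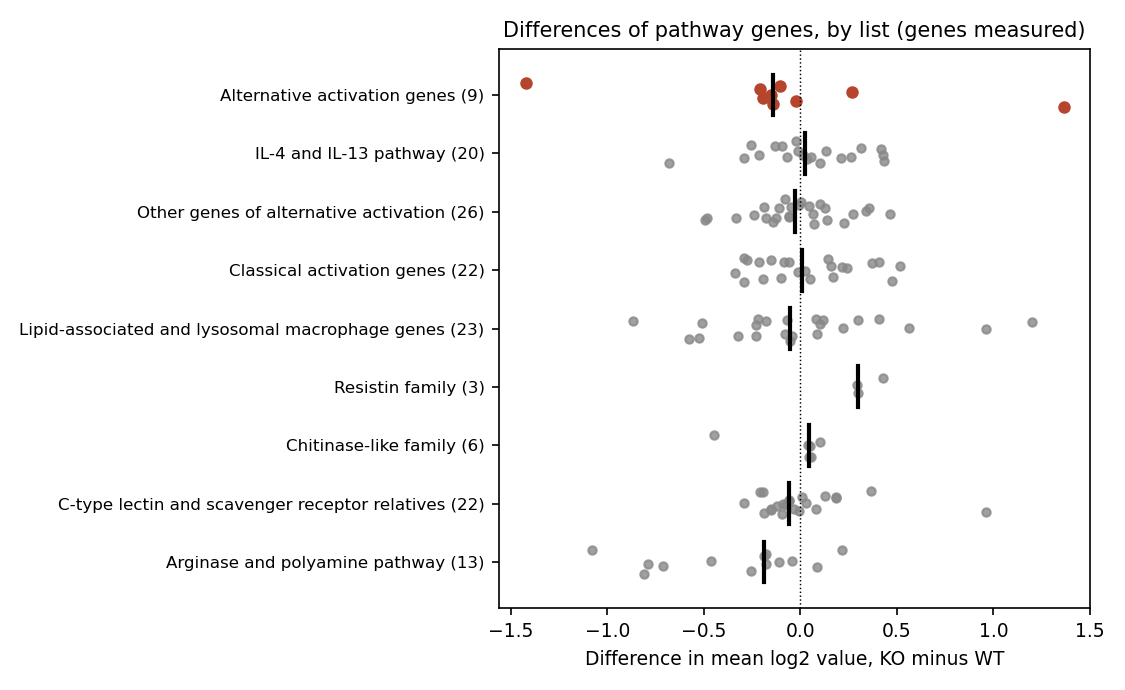
Difference in mean log2 value between KO and WT (horizontal axis) for each gene (points) of the 9 alternative activation genes (red) and of the 8 related lists (grey), with black bars at the medians. Numbers in parentheses count measured genes. Retnla at 1.36 and Gpnmb at -1.42 lie apart from the other red points, which lie between -0.21 and 0.27.

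Of the 9 alternative activation genes, 2 (Retnla and Clec10a) had a higher and 7 a lower mean in KO, and the median difference was -0.14. None of the 8 genes other than Retnla reached an adjusted p, or even an unadjusted p, under 0.05 in limma. With array weights, a fit that did not converge and put nearly all WT weight on replicate 2, Arg1, Chil3, Mrc1 and Msr1 passed the adjusted threshold, lower in KO, as did 4032 of all genes in either direction. Over all genes, 1 passed the adjusted threshold (0.00431%), the beta-globin gene Hbb-b1, and 1.91% had groups that did not overlap in either direction. The SD was larger in WT than in KO for 7 of the 9 genes, all except Retnla and Trem2, and for 76.9% of all genes. With WT replicate 3 left out, Arg1, Mrc1 and Gpnmb had every KO array below both remaining WT arrays, but so had 8.65% of all genes, and 21.4% did not overlap in either direction. With WT replicate 2 left out, Mgl2 alone joined Retnla, against 8.59% of all genes. Among the other 8 genes the sign of the difference was kept by Arg1, Mgl2, Trem2 and Gpnmb in each run with 1 array left out, and turned in at least 1 such run for Chil3, Mrc1, Clec10a and Msr1. For Mgl2 it turned with WT replicates 1 and 3 left out together (0.095).

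**Figure D4:**
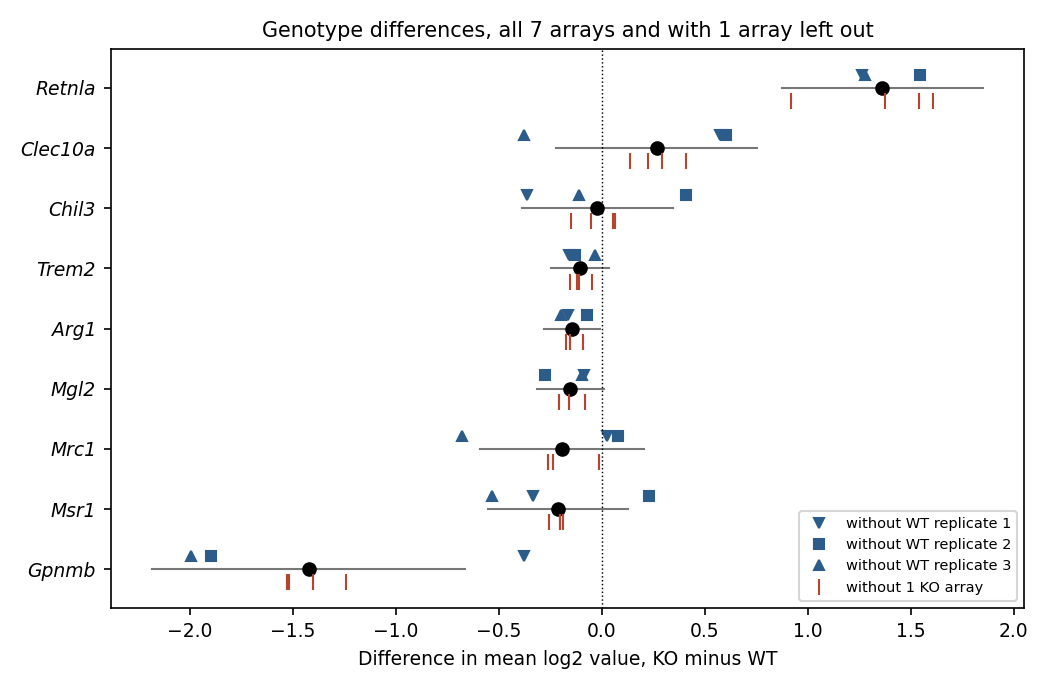
Difference in mean log2 value between KO and WT (black points) with 1 SE to either side (lines) for the 9 genes. Blue symbols give the difference without 1 WT array and red ticks without 1 KO array. The Gpnmb value moves from -1.42 to -0.38 without WT replicate 1, and the lowest Retnla value, 0.92, is without KO replicate 3.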

How the data were processed

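Total RNA of lesional skin was hybridised to Affymetrix arrays, 1 per sample. Per the submitters' processing notes, the authors deposited log2 values made with RMA (a method of background correction, quantile normalization and probe summary); version, probe-set definition and build are not given in the sources used here. RMA can return the same value on several arrays, as for 4 of the 9 genes and 54.3% of all genes (equal to 4 decimals). The deposited arrays still differed in median and SD, as given above. Scanner files were not used here. Symbols came from the platform annotation through Entrez numbers: 23185 of 25206 probe sets had 1 symbol and 2021 were unnamed.

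KO and WT were compared in limma 3.58.1 (R 4.3.3; lmFit, eBayes, all 7 arrays, two-sided, Benjamini-Hochberg over 23185 genes, threshold 0.05) on the values as deposited, with no filter. The procedure was also run on simulated data with independent noise of equal spread in both genotypes. The real arrays lacked that equal spread, so the run says nothing on how well the p-values hold here. Differences are KO minus WT with limma's SE. The SE, intervals and p-values assume a common spread in both genotypes for each gene. The median SD was 0.387 in WT, the smaller group, and 0.188 in KO. Where WT varied more, the SE and intervals may thus be too narrow. Precision is limited by how few arrays there are.

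The 9 genes, the related lists and the rule for naming genes were chosen with earlier results of these data known. Up to 4 genes with the smallest p were named from each list, and families in full. The 3 genes with the highest Pearson's r with Retnla among the genes ranked were named too. Genes named outside that rule (such as Il4, Il13, Stat6, Nos2, Tyrobp, Retnla's neighbours, and markers) were picked for their role. Counts per list without single WT arrays were added after seeing the data. List genes without a symbol match on the arrays were left out.

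Figures used matplotlib 3.10.9 in Python 3.11.15.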

Additional observations from a re-analysis of the deposited data

Results flagged for a closer look

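The highest or lowest KO array stood apart by Dixon's test (4 arrays) for 7 of 44 genes, while chance flags about 1 in 20 groups. Mrc1 was at 5.17 on KO replicate 2 (gap over range 0.893). Retnlb was at 3.38 on KO replicate 1 (0.917), and Chit1 at 5.09 on KO replicate 4 (0.855). Kdm6b (4.01 on KO replicate 4), Il1b (3.03 on KO replicate 3), Cd63 (10.55 on KO replicate 4) and Retnlg (3.20 on KO replicate 4) had a ratio of 0.993 to 1.0, since the other 3 KO arrays held nearly or exactly the same value. The WT group of 3 arrays was not checked in this way.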

How the results depend on the processing

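The Retnla difference, whose sign the choice of the gene fixes, ranged over 17 alternatives from 0.92 to 1.61 (0.921 to 1.611 with single arrays left out). It was 1.38 with the replicate block, the same as without KO replicate 4. Leaving out dim genes, intensity trend with robust moderation, and fitting all probe sets cannot change a difference, and it stayed at 1.36 there. Same-numbered samples did not deviate together (correlations of deviations -0.086, -0.145 and 0.034 for replicates 1, 2 and 3), so the numbers were not taken to pair them. The count of genes passing the adjusted threshold, 1 in the deposited values, was 0 with any single array left out, after quantile normalization again, with arrays centred on their medians, with an intensity trend and robust moderation, with the replicate block, blocked by code suffix, over all probe sets and without WT replicates 1 and 3. The number of genes with an unadjusted p under 0.05, 436 in the deposited values, was 249 to 2786 with single arrays left out, 251 with the replicate block, 278 blocked by code suffix, 716 after quantile normalization, 219 without the dimmest 50% of genes and 2024 without WT replicates 1 and 3. Array weights gave 4032 adjusted and 7364 unadjusted, but that fit stopped before it converged and put a weight of 75.4 on WT replicate 2 and 0.106 and 0.109 on WT replicates 1 and 3. In that fit, nearly one of KO against WT replicate 2 alone, 4 of the 8 genes besides Retnla passed the adjusted threshold in limma, all lower in KO, namely Arg1 (-0.28, adjusted p = 0.0227), Chil3 (-0.87, 0.0125), Mrc1 (-0.75, 0.021) and Msr1 (-1.10, 0.00625). Of the related genes named, Tfec, Clec7a, Marco, Oat and Azin1 were then lower and Fabp5, Asgr2 and Defb8 higher. None of these genes passed under another alternative. Without the dimmest 30% or 50% of genes the count was 1; Mgl2 then had no value, nor did Clec10a at 50%. The number of the 9 genes whose groups did not overlap, 1 in all arrays, was 1 to 4 with single arrays left out, 2 after quantile normalization (5.03% of all genes) and 7 without WT replicates 1 and 3 (37.5% of all genes). That last run sets the KO arrays against 1 WT array. Retnla alone was higher in KO there, against 20.3% of all genes in that direction, and 6 genes were lower, against 17.1%. The cause of these changes was not tested beyond what the smaller number of arrays sets.

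Of 133 other values for the 8 genes besides Retnla, 14 had the opposite sign. Not all of the 133 could turn or were separate. Leaving out dim genes, intensity trend with robust moderation, and fitting all probe sets keep each difference as it was. The replicate block gave the same differences as leaving out KO replicate 4. The share of turned signs is thus no measure of stability. Chil3 turned to 0.027 after quantile normalization, 0.064 with the replicate block and without KO replicate 4, 0.054 without KO replicate 3 and 0.41 without WT replicate 2 (lowest with 1 array out -0.36). Mrc1 turned to 0.0060 after quantile normalization, and to 0.027 and 0.077 without WT replicates 1 and 2 (lowest -0.68). Mgl2 turned to 0.10 with array weights and 0.095 without WT replicates 1 and 3. Clec10a turned to -0.38 without WT replicate 3 (highest with 1 array out 0.60), -0.40 with array weights and -0.41 without WT replicates 1 and 3, and Msr1 to 0.23 without WT replicate 2 (lowest -0.53). Among related genes with array weights, the values were 0.0019 for Kdm6b, -0.098 for Cd209d, -0.081 for Retn, -0.24 for Chil4 and -0.12 for Chia1, and without WT replicates 1 and 3 they were 0.0037, -0.10, -0.080, -0.27 and -0.14. After quantile normalization Chil4, Chia1 and Chil5 were at -0.027, -0.010 and -0.012, and blocked by code suffix Chil4 and Chia1 were at -0.0060 and -0.0016. Chit1 was at -0.11 with the replicate block. With single arrays left out, signs also turned for Kdm6b (lowest -0.44, highest 0.0037), Chil1 (-0.70 to 0.0084), Chil4 (-0.29 to 0.22), Chia1 (-0.16 to 0.16), Chit1 (-0.11 to 0.20), Chil5 (-0.16 to 0.31) and Chil6 (-0.13 to 0.46). The cause was not tested.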
